A study of Mus musculus with 2 samples.

Results

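ADAM, ADAMTS and ADAMTS-like genes were taken from an RNA sequencing table of primary mouse chondrocytes, the cells that build and maintain cartilage, as every row whose symbol is Adam, Adamts or Adamtsl followed by a number. The rule found 57 of 21983 rows: 33 ADAM, 19 ADAMTS and 5 ADAMTS-like genes. Of these, 31 had at least 20 counts summed over both libraries (15, 12 and 4 of the kinds just named), 11 had 1 to 19 counts and 15 had none. Wild-type cells (labelled MCC) were given 50 ng/ml of recombinant mouse Sparcl1 in one culture and phosphate-buffered saline (PBS) in the other, both for 3 days. Sparcl1 belongs to the Sparc family of secreted matrix proteins, and the design asks which chondrocyte genes differ on exposure to it. The labels give no strain, age or number of animals. There was 1 library per condition, so no difference has a replicate check, no test across cultures was possible, and the intervals below describe the counting of reads alone.

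ADAMs are membrane-anchored proteins with a metalloproteinase and a disintegrin domain. Catalytic members act as sheddases, cutting growth factors, cytokines and receptors off the cell surface. ADAMTS proteins are their secreted relatives, which carry thrombospondin type repeats and cut matrix: the aggrecanases cut the cartilage proteoglycan aggrecan, and the procollagen N-proteinases trim new collagen so that it can form fibrils. ADAMTS-like proteins share the ancillary domains but lack the protease domain, and several bind fibrillin microfibrils. In cartilage the family is best known for aggrecan loss in osteoarthritis, to which Adamts5 in mice and ADAMTS4 and ADAMTS5 in human tissue have been linked.

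The libraries held 26871933 gene counts (Sparcl1) and 29858851 (PBS). Counts were scaled to counts per 1000000 (CPM) with TMM factors (trimmed mean of M-values), and each difference is the log2 ratio of CPM, Sparcl1 over PBS, with a 95% counting interval in brackets. Cartilage markers were high in both libraries, 12243 and 13989 summed CPM over 16 genes in the Sparcl1 and PBS libraries, with none at 0 and a median log2 ratio of -0.25. Macrophage markers, 16 of 16 detected, summed to 2834 CPM (Sparcl1) and 2490 CPM (PBS), so these bulk cultures also held RNA typical of macrophages. Lyz2 alone gave 1640 CPM (Sparcl1) and 1327 CPM (PBS) of these sums, and Csf1r, the next, 334 and 345 CPM. Osteoblast markers summed to 6498 CPM (Sparcl1) and 8467 CPM (PBS), nearly all of it Col1a1 (6309 and 8206 CPM), with Ibsp next at 88.2 and 136 CPM. The fibroblast and synovial list summed to 9947 and 11596 CPM, mostly Col1a2 (6328 and 7779 CPM) and Col3a1 (2548 and 2878 CPM). Sums carried by so few genes do not measure how many such cells were present. Osteoclast markers summed to 97.4 and 94.5 CPM, mostly Ctsk (82.2 and 80.7 CPM), with Calcr at 0 in both. Endothelial, muscle and neutrophil markers stayed below 10 CPM as sums in both libraries, with 4 of 8 neutrophil and 3 of 8 muscle markers at 0 in both. The part of any of these cells in the differences was not tested, and in bulk RNA fewer cells of a type and less RNA per cell cannot be told apart.

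The catalytic members carry a zinc-binding signature, in which 3 histidines hold the active-site zinc ion and a glutamate takes part in catalysis. A search of the translated coding sequence of each gene (the longest complete reading frame in GENCODE M21, on GRCm38, also called mm10) found it in 38 of the 57 genes, 21 of them among the 31 measured. The 33 coding bases of the site, spliced and read on the coding strand, are shown for a selection of members, the most abundant ones with a site, those with the larger differences and close relatives of these, to show the site and how it varies within the family. Capitals mark the 3 histidine codons.
Adamts5: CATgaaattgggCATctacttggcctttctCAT
Adamts1: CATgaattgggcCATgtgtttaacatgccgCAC
Adamts4: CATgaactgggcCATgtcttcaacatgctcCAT
Adamts9: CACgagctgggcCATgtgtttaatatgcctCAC
Adamts2: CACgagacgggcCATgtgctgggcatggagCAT
Adamts14: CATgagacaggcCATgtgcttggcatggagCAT
Adamts6: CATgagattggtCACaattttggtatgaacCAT
Adamts12: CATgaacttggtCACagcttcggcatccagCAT
Adamts7: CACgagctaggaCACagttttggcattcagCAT
Adam9: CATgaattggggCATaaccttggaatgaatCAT
Adam8: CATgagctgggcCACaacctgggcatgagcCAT
Adam15: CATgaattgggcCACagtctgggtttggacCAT
Adam1a: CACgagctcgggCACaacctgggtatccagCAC
Adam10: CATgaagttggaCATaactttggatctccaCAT
Adam17: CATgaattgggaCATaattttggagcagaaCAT
The eighth codon of the site specifies asparagine in Adamts1, Adamts4, Adamts9, Adamts15 and Adamts20, all on the aggrecanase list, and glycine in the other 33 genes with a site, Adamts5 among them. Of the 33 bases, Adamts1 shared 28 with Adamts9 and 27 with Adamts4 but 20 with Adamts5. The sites of the procollagen N-proteinases Adamts2 and Adamts14 shared 30. All 4 measured ADAMTS-like genes lacked the site, as did Adam11, Adam22, Adam23, Adam3, Adam5 and Adam32. No match was found in Adamts8 either, but the search allowed only glycine or asparagine at the eighth codon. A site with another residue there would be missed, so this does not show that Adamts8 lacks the site. In genomic coordinates the Adamts5 site lies at chr16:85878015-85887826 on the minus strand and runs from exon 2 into exon 3. The Adamts4 site lies at chr1:171253210-171253915 on the plus strand, across exons 3 and 4, while that of Adam9 lies within exon 11 at chr8:24990326-24990358 on the minus strand.

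Levels of the family differed far more between genes than between libraries. Per kilobase of exon, the highest members were Adam9 (75.0 CPM per kb in the Sparcl1 library and 66.3 in the PBS library), Adam8 (65.4 and 60.1), Adamts5 (63.2 and 61.6) and Adam15 (63.1 and 59.3). Each of these stood at or above the 95th percentile of level among measured genes: Adam15 was at 95.5 and Adam9 at 96.3. Next in the Sparcl1 library came Adamtsl4 (41.2 and 38.7), Adam10 (38.7 and 40.8), Adamts1 (27.4 and 27.6), Adamts2 (18.5 and 18.9), Adamtsl3 (17.0 and 23.6) and Adam17 (15.8 and 16.9). At the low end Adamts20 stood at 0.0572 CPM per kb (Sparcl1) and 0.0377 (PBS). In the Sparcl1 library, 17 of the 30 neighbouring pairs in this order had overlapping counting intervals, among them Adam8 with Adamts5 and Adamts5 with Adam15. No member moved by more than 3 places between the libraries.

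**Figure D1:**
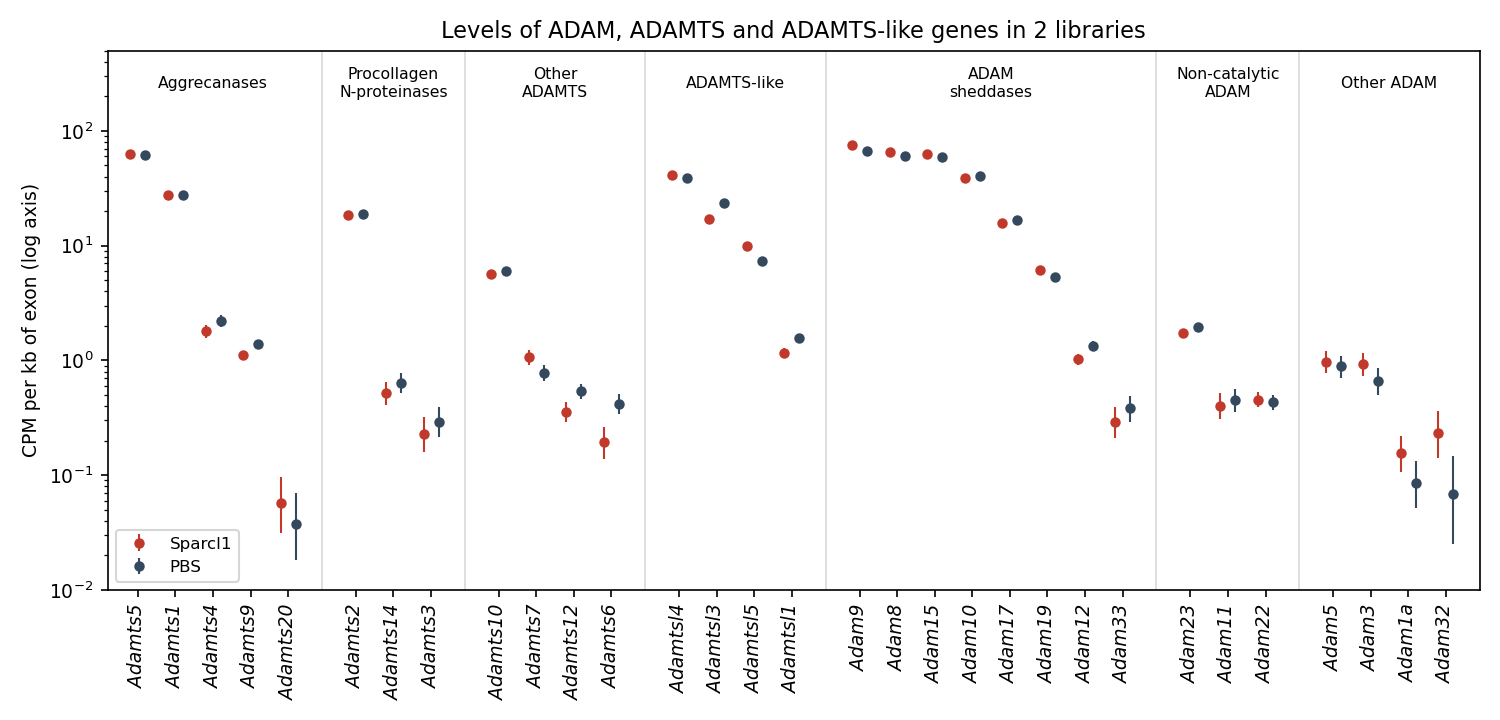
Level of each measured member in CPM per kb of exon (log axis), with the Sparcl1 library in red on the left and the PBS library in dark blue on the right of each pair, grouped by role. Points are single libraries and bars are exact 95% Poisson intervals of the counts. Adam9, Adam8, Adam15 and Adamts5 are the highest members in both libraries, and Adamts20 is the lowest in both.

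As a family the genes were near equal between the libraries. Of 31 members 17 had a ratio below 1 (54.8%), against 50.4% of all 13317 genes with at least 20 summed counts. The median log2 ratio was -0.03, against 0.00 over all genes (written to 2 decimals). By a rule of size that asks for a ratio of at least 2-fold and a counting interval that excludes 0, 1 member was higher (Adam32) and 1 lower (Adamts6), where 0.954% of all genes were higher and 0.946% lower. At 1.5-fold, 2 members were higher (Adam32 and Adam1a, background 2.32%) and 2 lower (Adamts6 and Adamts12, background 2.35%). With 1 or 2 genes in each direction, these counts do not set the family apart from the background. The interval lay below 0 for 10 members (32.3%, background 21.6%) and above 0 for 10 (32.3%, background 20.1%). Of the 27 members that reached 100 summed counts, 0 were higher and 1 lower at 2-fold (background 0.168% and 0.319%), and 0 higher and 2 lower at 1.5-fold (background 1.34% and 1.66%). At that depth 16 ratios were below 1 (background 50.6%), 10 intervals lay below 0 (background 23.2%) and 8 above (background 21.2%).

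**Figure D2:**
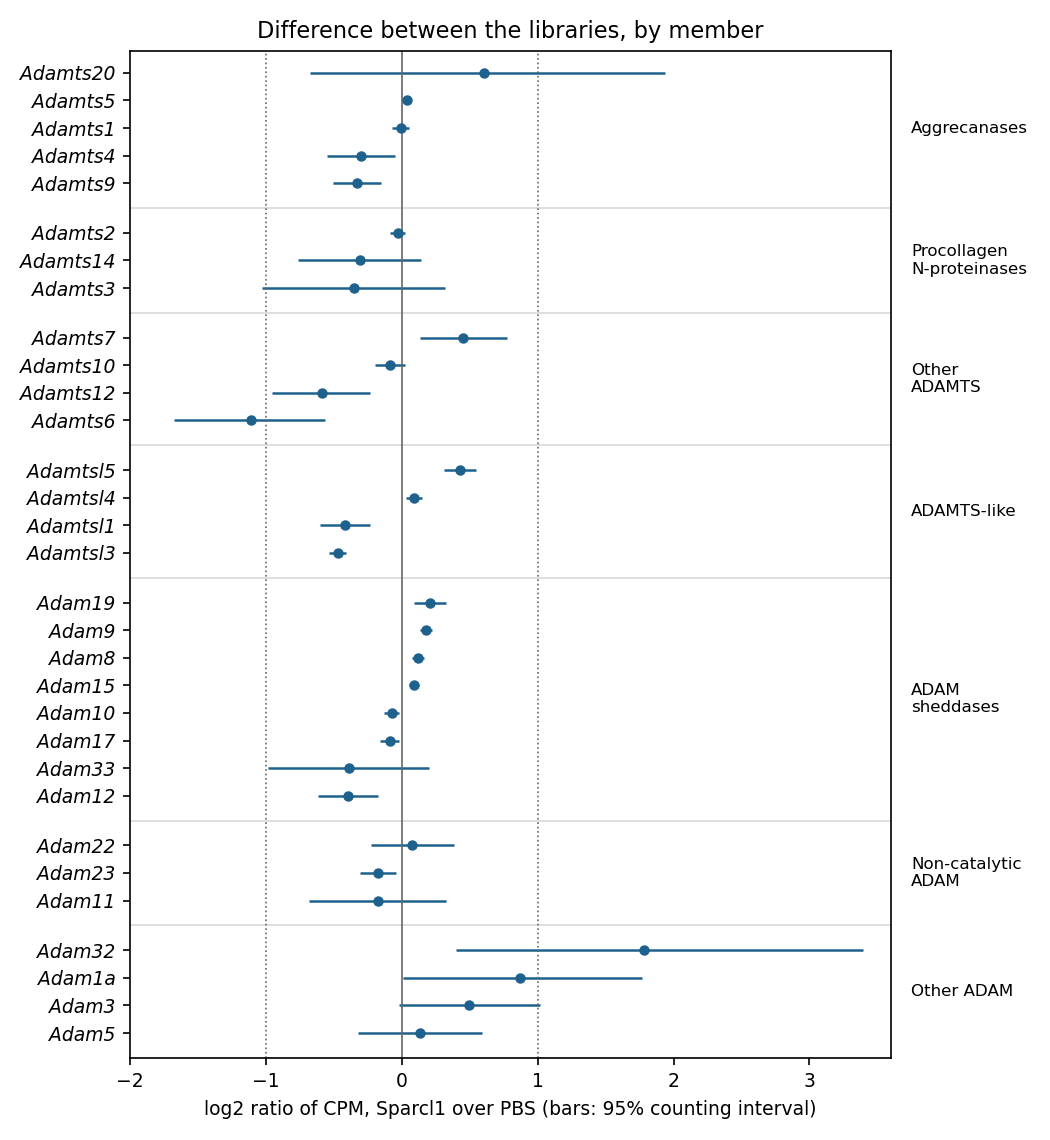
The log2 ratio of CPM, Sparcl1 over PBS, for the 31 measured members grouped by role. Points are the ratios of the 2 libraries, bars the 95% counting intervals, the solid line marks equal levels and the dotted lines a 2-fold difference. Adamts6 at -1.11 and Adam32 at 1.78 are the points past a dotted line, and the abundant members lie close to 0 with short bars.

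The aggrecanase group was carried by Adamts5 and Adamts1, and both were close to equal in the libraries. Adamts5, the main aggrecanase of mouse cartilage, had 18539 counts with Sparcl1 and 19608 with PBS, a log2 ratio of 0.04 (0.01 to 0.07). Adamts1, which cuts aggrecan and versican, had 3952 (Sparcl1) and 4312 (PBS) counts, at -0.01 (-0.07 to 0.05). Together they made up nearly the whole level of the group per length, Adamts5 67.5% (Sparcl1) and 66.4% (PBS) and Adamts1 29.3% and 29.7%. They are neighbours on chromosome 16, Adamts1 at 85793827 to 85803113 and Adamts5 at 85856173 to 85901828, both on the minus strand and 53060 bases apart. Their counts kept nearly the same proportion, 0.213 Adamts1 counts per Adamts5 count with Sparcl1 and 0.220 with PBS, a log2 difference of -0.04 (-0.11 to 0.02) that does not depend on how the libraries are scaled.

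The rarer aggrecanases Adamts4 and Adamts9 had lower counts with Sparcl1. Adamts4, the inflammation-inducible aggrecanase of human cartilage, had 235 counts with Sparcl1 and 314 with PBS, at -0.30 (-0.55 to -0.05). Adamts9, which also cuts versican, had 452 (Sparcl1) and 616 (PBS), at -0.33 (-0.51 to -0.15). Neither reached 1.5-fold, although both intervals excluded 0. Relative to Adamts5, Adamts4 stood at 0.0127 counts per count with Sparcl1 and 0.0160 with PBS, a log2 difference of -0.34 (-0.59 to -0.09). Adamts20, the versican-cutting gene of pigment cell migration, had 14 (Sparcl1) and 10 (PBS) counts, and its interval of -0.67 to 1.93 spans 0. The list's median was -0.01 over 5 measured members, and -0.15 without Adamts20, which a minimum of 100 summed counts leaves out.

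**Figure D3:**
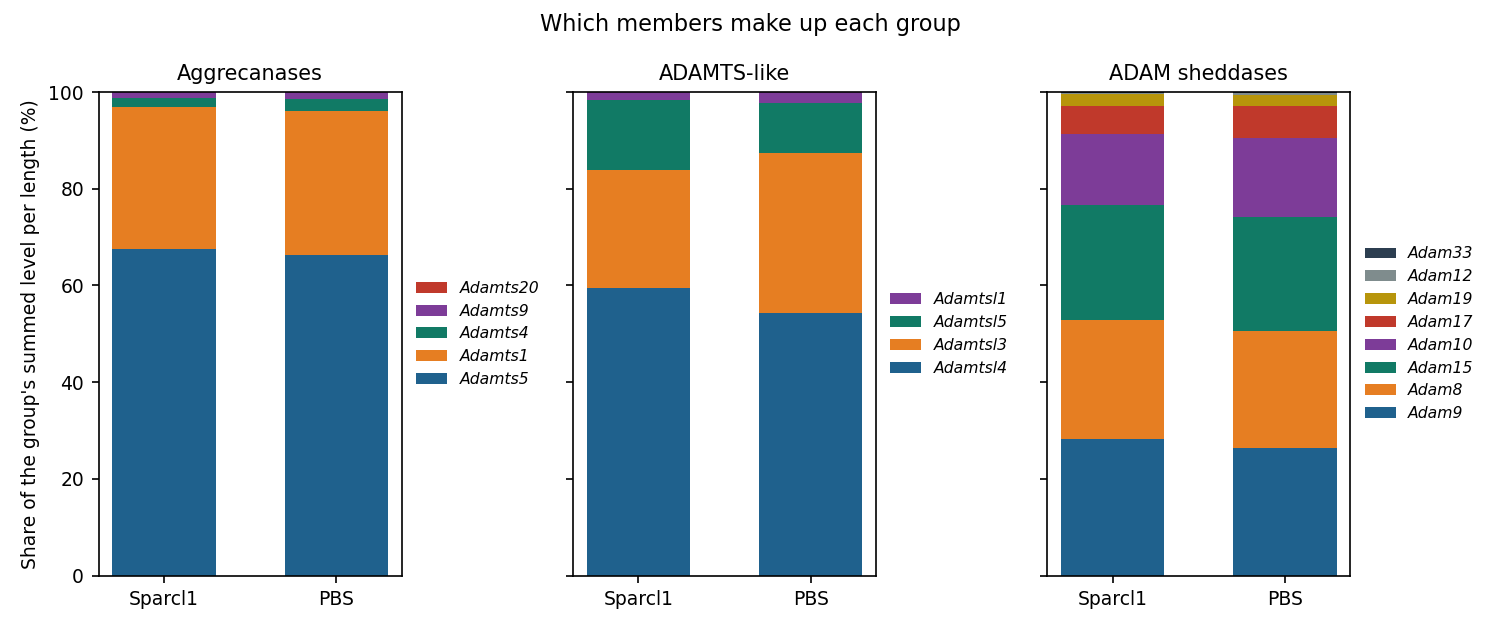
Share of the summed level per length (percent, from 0) that each member contributes to the aggrecanases, the ADAMTS-like genes and the ADAM sheddases, with the Sparcl1 library on the left and the PBS library on the right of each panel. Single libraries, no error bars. In the ADAMTS-like panel Adamtsl3 takes 24.5% with Sparcl1 and 33.1% with PBS, while the aggrecanase bars are nearly alike.

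Procollagen N-proteinases were represented almost entirely by Adamts2, which removes the amino-terminal propeptide of fibrillar procollagens. Adamts2 had 4688 counts with Sparcl1 and 5194 with PBS, at -0.03 (-0.09 to 0.03). Its share of the group's level per length was 96.1% (Sparcl1) and 95.3% (PBS). The related enzyme Adamts14 had 73 and 98 counts in the Sparcl1 and PBS libraries, at -0.31 (-0.77 to 0.14). Adamts3, which also activates the lymphatic growth factor VEGF-C, had 34 (Sparcl1) and 47 (PBS), at -0.35 (-1.03 to 0.32). All 3 ratios were below 1 and all 3 intervals included 0, so no difference was detectable at this depth.

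Among the remaining ADAMTS genes lay the lowest ratio of the family. Adamts6, which acts on fibrillin-rich and fibronectin matrix and is the closest relative of Adamts10, had 41 counts with Sparcl1 and 96 with PBS. That is 2.16-fold lower, a log2 ratio of -1.11 (-1.67 to -0.57), so the bound nearest 0 is short of 2-fold. It is a rare transcript, at 0.193 CPM per kb (Sparcl1) and 0.417 (PBS). Adamts10 itself, which supports fibrillin-1 microfibrils, was the abundant gene of this group with 1273 (Sparcl1) and 1466 (PBS) counts, at -0.09 (-0.20 to 0.02). Adamts6 has its gene on chromosome 13 at 104287835 to 104496695 and shared no exon base with another annotated gene.

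Adamts7 and Adamts12, both known to cut cartilage oligomeric matrix protein (COMP), stood on opposite sides of equal expression. Adamts12 had 106 counts with Sparcl1 and 173 with PBS, at -0.59 (-0.95 to -0.23), which just passes 1.5-fold. It did not reach 1.5-fold with total counts (-0.55), with a prior count of 2 (-0.58) and with the length trend removed (-0.52). Adamts7 had 183 (Sparcl1) and 145 (PBS), at 0.45 (0.13 to 0.78). Within the Sparcl1 library Adamts12 had 0.579 counts per count of Adamts7, against 1.19 within the PBS library, a log2 difference of -1.04 (-1.53 to -0.55) in which the scaling cancels. Adamts7 overlaps Tbc1d2b on the opposite strand over 122 of 6282 exon bases, and that gene had 2359 (Sparcl1) and 2436 (PBS) counts. The RNA of Comp, which encodes their shared substrate, was at 0.03 (0.01 to 0.04), and cleavage of the protein was not measured.

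The ADAMTS-like genes split in direction. Of the 4 measured, 2 had intervals above 0 (background 20.1%) and 2 below 0 (background 21.6%), and Adamtsl4 and Adamtsl3 were the abundant ones. Adamtsl3 (punctin-2), an extracellular matrix glycoprotein, had 3579 counts with Sparcl1 and 5389 with PBS, a log2 ratio of -0.47 (-0.53 to -0.41) and 1.39-fold lower. Its relative Adamtsl1 (punctin-1) had 407 (Sparcl1) and 589 (PBS), at -0.42 (-0.60 to -0.23). On the other side, Adamtsl5, reported to associate with fibrillin, had 1283 (Sparcl1) and 1034 (PBS), at 0.43 (0.31 to 0.55). Adamtsl4, a fibrillin-binding protein known from the zonule of the eye lens, had 4706 (Sparcl1) and 4790 (PBS), at 0.09 (0.03 to 0.15).

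None of the ADAMTS-like differences reached 1.5-fold, but the make-up of the group differed between the libraries. Adamtsl3 took 35.9% of the group's counts with Sparcl1 (exact binomial interval 34.9 to 36.8) and 45.7% with PBS (44.8 to 46.6). Adamtsl5 took 12.9% with Sparcl1 (12.2 to 13.5) and 8.76% with PBS (8.26 to 9.29). The intervals of the libraries do not overlap for either gene, for counting error only. Counts of Adamtsl3 per count of Adamtsl5 were 2.79 with Sparcl1 and 5.21 with PBS, a log2 difference of -0.90 (-1.04 to -0.77). This pair, chosen with earlier results of these data known, joins the lowest and the highest ratio of the group. The size of its difference follows from that choice and is no separate evidence. The summed level of the group was 69.4 CPM per kb (Sparcl1) and 71.3 (PBS).

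Adam9, Adam8 and Adam15 were the most abundant ADAM sheddases and were slightly higher with Sparcl1. Adam9 (meltrin gamma) had 8389 counts with Sparcl1 and 8051 with PBS, at 0.18 (0.13 to 0.22). Adam15, a member linked to cartilage upkeep in mice, had 10540 (Sparcl1) and 10753 (PBS), at 0.09 (0.05 to 0.13). It shares 1263 of 6145 exon bases with an antisense gene, 4731419I09Rik, that is not a row of the count table. Adam8, known from myeloid cells and osteoclasts, had 8254 (Sparcl1) and 8228 (PBS), at 0.12 (0.08 to 0.17). Beside it, the macrophage list stood at a median of 0.05 over 16 genes on the log2 scale and the osteoclast list at 0.07 over 6, and their part in the Adam8 value was not tested.

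Adam10 and Adam17, the best studied sheddases, lay just below equal expression and kept their proportion. Adam10, which cuts Notch receptors, had 5178 counts with Sparcl1 and 5912 with PBS, at -0.07 (-0.13 to -0.02). Adam17, which releases tumour necrosis factor and ligands of the epidermal growth factor receptor, had 3080 (Sparcl1) and 3557 (PBS), at -0.09 (-0.16 to -0.02). There were 0.595 Adam17 counts per Adam10 count with Sparcl1 and 0.602 with PBS, a log2 difference of -0.02 (-0.11 to 0.07).

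The meltrins alpha and beta lay on opposite sides of equal expression. Adam12 (meltrin alpha), known from muscle and mesenchyme, had 294 counts with Sparcl1 and 420 with PBS, at -0.40 (-0.62 to -0.18). Adam19 (meltrin beta), known from heart development, had 1193 (Sparcl1) and 1121 (PBS), at 0.21 (0.09 to 0.33). Adam12 stood at 0.246 counts per Adam19 count with Sparcl1 and 0.375 with PBS, a log2 difference of -0.60 (-0.86 to -0.35). This pair, chosen with earlier results of these data known, also joins the lowest and the highest ratio of the measured sheddases. Adam33, a gene linked to human asthma, had 43 (Sparcl1) and 61 (PBS) counts, with an interval of -0.99 to 0.20. Over the 8 measured sheddases the ratios ran from -0.40 to 0.21 with a median of 0.01, and 4 lay on each side of 0.

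Adam11, Adam22 and Adam23, which lack the zinc site, encode adhesion proteins best known from neurons. Adam23, a receptor of the secreted protein LGI1, was the most abundant with 846 (Sparcl1) and 1034 (PBS) counts, at -0.17 (-0.31 to -0.04). Adam22, another LGI1 receptor, had 177 and 182 counts in the Sparcl1 and PBS libraries, at 0.08 (-0.23 to 0.38). Adam11 had 62 (Sparcl1) and 76 (PBS), at -0.18 (-0.68 to 0.33). Only the Adam23 interval of these 3 excluded 0, and its difference was small.

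The remaining 4 measured ADAM genes, grouped after their values were seen, are known chiefly from testis and sperm and were low. Adam32 had 19 counts with Sparcl1 and 6 with PBS, a log2 ratio of 1.78 (0.40 to 3.39), the highest of the family and among the least precise. Adam3, needed for sperm migration, had 74 (Sparcl1) and 57 (PBS), at 0.49 (-0.02 to 1.02), and Adam5 had 83 and 82 counts, at 0.13 (-0.32 to 0.59). Adam1a, a partner of sperm fertilin, had 32 (Sparcl1) and 19 (PBS), at 0.87 (0.01 to 1.77). Its annotated exons share 1805 of 7508 bases with Mapkapk5 and 4779 with Gm42878 on the same strand, and 848 with Tmem116 on the other, so neither its counts nor its level are certain.

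Adam32, Adam5 and Adam3 follow the abundant Adam9 head to tail on the minus strand of chromosome 8. Adam9 lies at 24949611 to 25016927, Adam32 begins 807 bases beyond its end at 24836140 to 24948804, and Adam5 (24727093 to 24824369) and Adam3 (24677225 to 24725852) come next. Per length these 3 genes stood at 0.233, 0.975 and 0.925 CPM per kb with Sparcl1 and 0.0680, 0.888 and 0.657 with PBS, against 75.0 and 66.3 for Adam9. Adam18, the last gene of the row, had 3 counts with Sparcl1 and 1 with PBS.

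**Figure D4:**
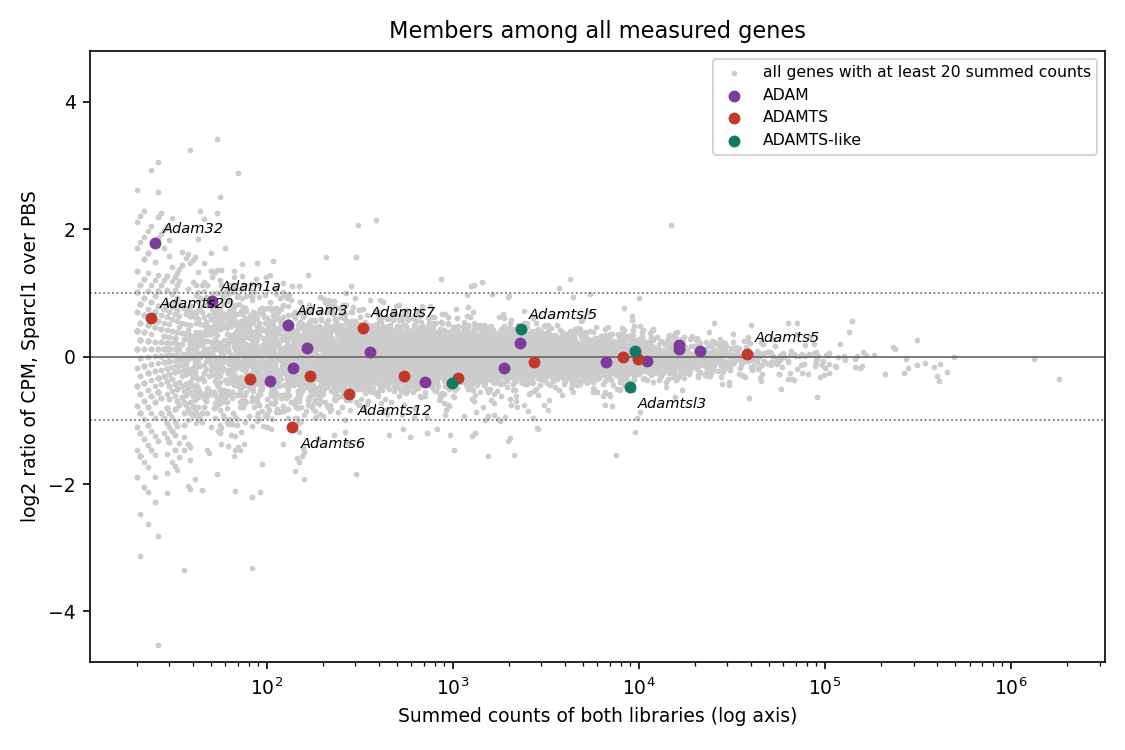
The log2 ratio, Sparcl1 over PBS, against the summed counts of both libraries (log axis) for all 13317 genes with at least 20 summed counts in grey, with ADAM, ADAMTS and ADAMTS-like genes in colour. Each point is 1 gene, dotted lines mark 2-fold, and the members farthest from 0 and Adamts5 are labelled. Most members lie inside the grey band at their depth, with Adamts6 and Adamtsl3 toward its lower edge and Adam32 at the shallow end.

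The 21 measured genes with the zinc site had a median log2 ratio of -0.07, with 13 below 0, and the 10 without it 0.08, with 4 below 0. The 10 include Adam3, Adam5 and Adam32, low-count genes known chiefly from testis and sperm, all with ratios above 1. Adam1a, of the same kind and also above 1, is among the 21. Of all genes, 50.4% had a ratio below 1. No test of this difference was made. By kind, the 12 ADAMTS genes had a median of -0.19, with 9 ratios below 1, while the 15 ADAMs had 0.09, with 6 below 1. The 15 include the 4 low-count genes known chiefly from testis and sperm, all with ratios above 1. The difference between the kinds was not tested either. For ADAMTS-like genes the median was -0.16. Against all genes, Adamts6 stood at percentile 0.909 of the log2 ratios, Adamtsl3 at 4.94, Adamtsl5 at 94.2 and Adam32 at 99.8, and the abundant Adamts5 at 58.0. These positions mix genes of all depths, and shallow genes spread more widely.

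Genes around the family were read from lists of substrates, inhibitors and partners. All values are RNA levels, and neither protease activity nor cleavage of any substrate was measured. The procollagen list, 5 of 5 measured, had all ratios below 1, against 50.4% of all genes, and a median of -0.27. In it Col1a1 was at -0.38, Col1a2 at -0.30 and Col2a1, the main cartilage collagen, at -0.24, beside -0.03 for Adamts2 that trims them. Acan, which encodes aggrecan, had 2276 counts with Sparcl1 and 3496 with PBS, at -0.50 (-0.58 to -0.43), and Vcan, which encodes versican, was at 0.16 (0.03 to 0.29). Bcan, which encodes brevican, had 9 counts in each library. Of the 16 chondrocyte markers, Col2a1 and Acan among them, 14 had ratios below 1, where 50.4% of all genes did. Osteoblast markers, Col1a1 among them, had a median of -0.38 over 7 genes, all below 0 (background 50.4%). The fibroblast and synovial list, which holds Col1a2, had a median of -0.11 over 7. The part of these cells in the values was not tested. Of 8 other ADAMTS substrates none was past 2-fold and the median was -0.11. The most abundant of these, Fn1 (fibronectin) and Bgn (biglycan), were at -0.04 and -0.18, and Vwf, the blood-clotting substrate of Adamts13, had 84 (Sparcl1) and 145 (PBS) counts, at -0.67 (-1.08 to -0.27). Vwf is also an endothelial marker, and that list summed to 6.40 CPM (Sparcl1) and 8.71 CPM (PBS). Of these sums Vwf itself was 3.09 and 4.92 CPM, so the list is no independent comparison for it.

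Of 27 measured shedding substrates 10 had ratios below 1, against 50.4% of all genes, and the median was 0.06. At 2-fold 1 was higher (background 0.954%) and 1 lower (background 0.946%). Tnfsf11, which encodes the osteoclast factor RANKL, had 42 counts with Sparcl1 and 21 with PBS, at 1.12 (0.33 to 1.95). Egf, the epidermal growth factor gene, had 18 (Sparcl1) and 52 (PBS), at -1.41 (-2.27 to -0.62). Both rest on few counts. The most abundant substrates App, Csf1 and Cd44 were at -0.17, 0.06 and 0.23.

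Inhibitors were more abundant per length than the family, at a summed level of 3591 CPM per kb (Sparcl1) and 3052 (PBS) for the 5 measured, against 459.8 and 446.6 for the 31 members. Timp1 was at 0.53 (0.51 to 0.55), with 40561 counts with Sparcl1 and 30427 with PBS, and Timp2 was at 0.11. Timp3, the main natural inhibitor of the aggrecanases and of Adam17, had 160350 (Sparcl1) and 186742 (PBS), at -0.10 (-0.11 to -0.09). Of the 5 inhibitors 3 had ratios above 1 and 2 below, Timp3 among the latter, where 50.4% of all genes were below 1. The higher summed level with Sparcl1 was thus not shared by all of them. Of the 16 measured maturation and partner genes 1 was higher at 1.5-fold, against 2.32% of all genes. Tspan15, a tetraspanin that guides Adam10 to particular substrates, had 76 (Sparcl1) and 47 (PBS), at 0.81 (0.27 to 1.37). Lrp1, which clears ADAMTS proteases from the cell surface, was at 0.01 with an interval that includes 0, the propeptide-cutting gene Pcsk6 at -0.18 and the podosome adaptor Sh3pxd2a at -0.11. The list's median was 0.03.

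**Figure D5:**
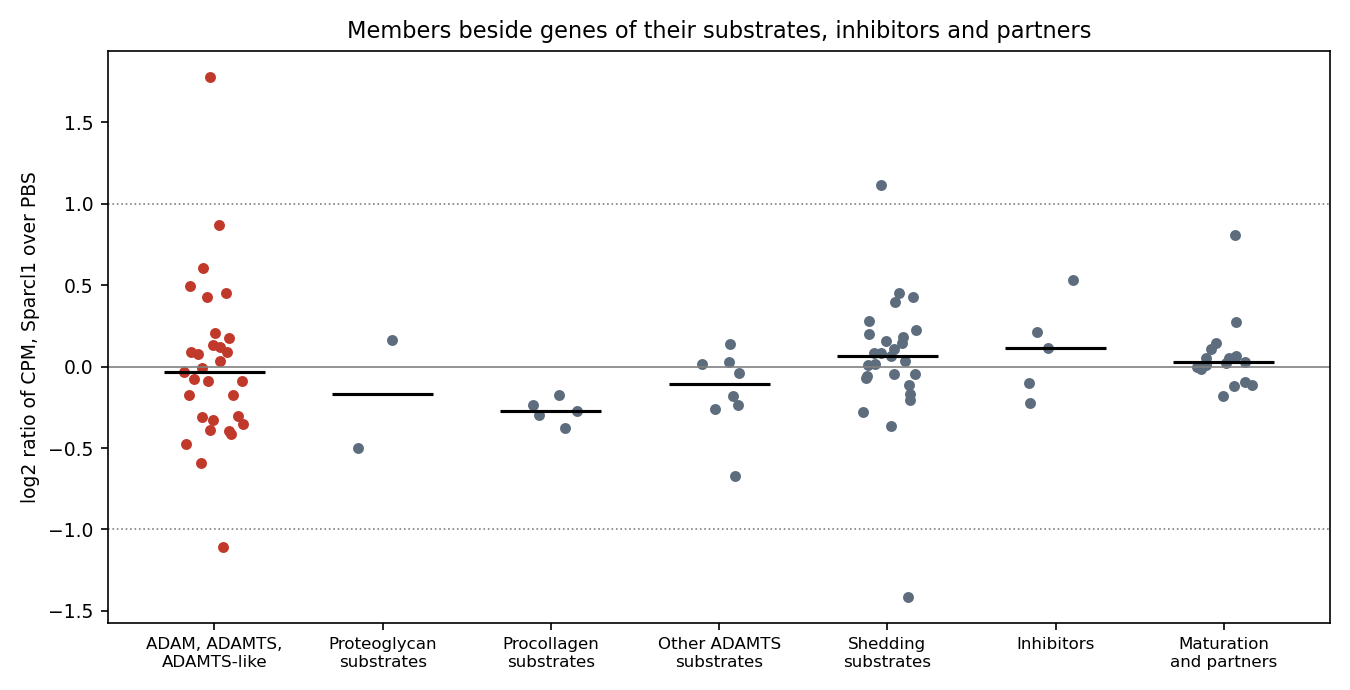
The log2 ratio, Sparcl1 over PBS, of the 31 measured members (red, left) and of genes on 6 related lists (grey), for genes with at least 20 summed counts. Each point is 1 gene spread sideways for clarity, black bars are medians, and dotted lines mark 2-fold. All 5 procollagen genes lie below 0, where 50.4% of all genes do, and the members scatter on both sides with a median of -0.03.

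Of the members below the count minimum, Adam4 (10 counts with Sparcl1 and 7 with PBS) and Adamts17 (5 and 11) lay just outside the minimum, and Adamts20 (14 and 10) and Adam32 just inside it. Adamts15, an aggrecanase, had 5 (Sparcl1) and 10 (PBS), and Adamts18 had 7 and 8. Adam21 had 4 (Sparcl1) and 7 (PBS), Adamts8 had 2 and 4, and Adam25 had 0 and 1. Adam28, Adamts13 and Adamtsl2 had 5, 4 and 2 counts with Sparcl1 and 0 with PBS. These are too few to compare. No count was seen in either library for Adam1b, Adam2, Adam6a, Adam6b, Adam7, Adam20, Adam24, Adam26a, Adam26b, Adam29, Adam30, Adam34, Adam39, Adamts16 and Adamts19, which allows up to 0.110 CPM with Sparcl1 and 0.102 CPM with PBS (3 counts per library).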

How the data were processed

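Total RNA from 2 cultures was made into libraries with a NEBNext Ultra kit and sequenced on a NovaSeq, per the labels' protocols. The values are counts that the authors deposited, 1 whole number for each gene symbol and library, made with Trimmomatic, FastQC, STAR and HTSeq on build mm10, per the submitters' processing notes. Tool versions, gene annotation, strand setting and the handling of multi-mapping reads are not given in the sources used here. Without strand, reads of overlapping genes on opposite strands cannot be separated, and 9 measured members overlap another gene.

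Positions, exon lengths and coding sequences come from GENCODE M21 (GRCm38), in which 99.6% of rows and all 57 members were matched by symbol. In 26 rows the symbol had been turned into a date. They stayed in the totals. Scaling used TMM factors (0.988 for PBS, 1.01 for Sparcl1) from edgeR 4.0.16 in R 4.3.3, and the rest Python 3.11.15 with scipy 1.17.1. Intervals on ratios are exact Clopper-Pearson intervals on the Sparcl1 part of a gene's counts, those on levels are Poisson, and those on ratios between genes are exact conditional. All are at 95% and cover counting error only. They treat reads as independent, which reads amplified by PCR are not, so they can be too narrow even for counting error. With equal counts the upper bound exceeds the log2 ratio by 1.42 for 20 summed reads, by 0.41 for 200 and by 0.13 for 2000. With 1 library per group edgeR's test could not be run, so no p-value is given. The ratio, its interval and the 2-fold rule were tried on simulated counts with counting error alone, scaled by total counts. That trial cannot show variation between cultures and did not cover the other steps.

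All measured members are named. Of each related list the 3 most abundant genes and those past 1.5-fold are named. The site search first allowed only glycine at the eighth codon and was widened to asparagine after its result was seen. The members, lists and the 9 gene pairs were chosen with earlier results of these data known. The alternatives tried were scaling by total counts, by DESeq2 (1.42.0) size factors or by upper-quartile factors, no count minimum, a minimum of 100, a prior count of 2, removal of a length trend (running median over 501 genes) and intervals widened by an assumed coefficient of variation of 0.1.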

Additional observations from a re-analysis of the deposited data

How the results depend on the processing

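The count of 1 member past 2-fold in each direction held under every alternative run, except that a minimum of 100 summed counts leaves 0 higher, since Adam32 has fewer. The count past 1.5-fold higher was 0 with that minimum and 1 with widened intervals. Past 1.5-fold lower, the count was 1 in place of 2, without Adamts12, with total counts, with a prior count of 2 and with the length trend removed. Without a count minimum the median log2 ratio was -0.30 for aggrecanases, -0.086 for the other ADAMTS genes and -0.42 for ADAMTS-like genes, since rows with few reads enter. With a minimum of 100 it was -0.15 for aggrecanases and -0.17 for procollagen N-proteinases. Of 155 values of named members under alternatives, 3 left their counting interval (Adamts5 at 0.07 with total counts and 0.11 with the length trend removed, Adamts2 at 0.03 with the length trend removed). The sign changed in 4, all for Adamts1 and Adamts2, which lie near 0. The median of all members changed sign as well, to 0.00 with total counts and with the length trend removed. No paired analysis was possible because each condition has 1 library. One library per condition sets the main limit: variation between cultures is unknown.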

Other observations

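Relatives of the family that fall outside its symbols were looked up after the other values were seen. Thsd4, which encodes an ADAMTS-like protein that promotes fibrillin-1 microfibrils, had 42 counts with Sparcl1 and 63 with PBS, a log2 ratio of -0.47 (95% counting interval -1.07 to 0.12). Papln (papilin) had 11 (Sparcl1) and 12 (PBS) counts, and Adamdec1, an ADAM-like protease of macrophages, had 0 and 1. The Thsd4 interval includes 0, and the other 2 are too rare to compare.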
